A study of Mus musculus with 9 samples.

Results

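The Nrf2 and glutathione antioxidant genes Nfe2l2, Keap1, Nqo1, Hmox1, Gclc, Gclm, Gpx2, Txnrd1, Srxn1 and Slc7a11 were examined in RNA-seq of mouse colonic mucosa. They were taken by symbol, and all 10 were found among the 54146 genes of the deposited table. The mice were 15 wk old C57BL/6J animals. The first group was 5 ApcMin/+ mice (2 females and 3 males), which carry a heterozygous germline mutation of Apc. The second group was 4 ApcMin/+; p16cis/cis mice (3 females and 1 male), which carry the same Apc mutation and, on both p16 alleles, a knocked-in DNA element that spreads DNA methylation into the p16 promoter. Both genotypes are tumor-prone and both alleles are germline, so every cell of the mucosa carries them. The methods name colonic crypts as the source of the RNA, and each mouse gave 1 library.

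Nrf2, encoded by Nfe2l2, is the transcription factor that drives the response of cells to oxidants and electrophiles. Keap1 is its sensor, an adaptor that presents Nrf2 to the Cul3 ubiquitin ligase for degradation until oxidants modify its cysteines. Nrf2 then pairs with small Maf proteins on antioxidant response elements and raises genes for glutathione synthesis, thioredoxin reduction, quinone reduction and heme breakdown. In the intestine Gpx2 is the epithelial glutathione peroxidase, with its main expression toward the crypt base, where it reduces hydroperoxides with glutathione.

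The promoters of the called genes with a RefSeq window are shown so that the core of the antioxidant response element can be seen where it occurs. Sequences were from RefSeq (GRCm38.p6). They are written 5′ to 3′ on the strand of the gene and end before the first base that RefSeq and GENCODE M21 annotate as transcribed. Capitals mark matches on either strand to TGACNNNGC, the core named when the gene lists were written.
Nfe2l2 (chr2:75704664-75704913, minus strand): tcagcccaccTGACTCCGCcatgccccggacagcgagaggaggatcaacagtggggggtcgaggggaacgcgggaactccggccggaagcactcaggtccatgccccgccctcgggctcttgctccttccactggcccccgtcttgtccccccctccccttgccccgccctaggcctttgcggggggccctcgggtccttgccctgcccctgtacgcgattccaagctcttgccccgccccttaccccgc
Gclm (chr3:122245307-122245556, plus strand): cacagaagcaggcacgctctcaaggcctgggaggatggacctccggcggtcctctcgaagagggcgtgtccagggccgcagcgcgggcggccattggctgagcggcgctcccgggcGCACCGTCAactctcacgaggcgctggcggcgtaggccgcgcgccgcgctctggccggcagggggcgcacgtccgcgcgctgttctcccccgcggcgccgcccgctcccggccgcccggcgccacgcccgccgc
Gpx2 (chr12:76795555-76795804, minus strand): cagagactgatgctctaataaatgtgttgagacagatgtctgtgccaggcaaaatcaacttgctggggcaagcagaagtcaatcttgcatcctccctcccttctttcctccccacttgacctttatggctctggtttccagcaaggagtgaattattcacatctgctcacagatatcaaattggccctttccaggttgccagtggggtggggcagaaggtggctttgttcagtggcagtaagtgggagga
Over windows from 250 bases before to 50 bases after a start, TGACNNNGC was found in 12.4% and TGAGNNNGC, a variant added after the sequences were seen, in 17.6% of all 32851 windows. The windows matched 8 of the 10 genes, with Gclc and Hmox1 unmatched and 3 windows for Txnrd1. Of the 10 windows of these genes 4 held TGACNNNGC and 2 held TGAGNNNGC. By gene, TGACNNNGC was found in 4 of these 8 genes, namely Nfe2l2, Gclm, Txnrd1 and Srxn1, and TGAGNNNGC in Srxn1 and Slc7a11. In Nfe2l2 the match began 240 bases before the start, in Gclm 134 bases and in Txnrd1 92 bases before it, and the TGACNNNGC match of Srxn1 lay after its start. The match of Srxn1 at 45 bases before the start, TGAGTCAGC, also holds the letters TGAGTCA of an AP-1 element. Neither pattern occurred in the windows of Keap1, Nqo1 or Gpx2, which says only that these letters are not in these windows.

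The libraries held 15745098 to 17885918 reads on genes in ApcMin/+ mice and 13523500 to 14900228 in ApcMin/+; p16cis/cis mice. Mitochondrial genes took 8.74% to 15.6% of the reads in the first group and 19.3% to 29.8% in the second, with no overlap between the genotypes. The table gives each count after scaling for library size (normalized count). Genotypes were compared with limma on log2(normalized count + 1) for the 14410 genes that reached 10 in 4 or more mice. A gene is called here when its p-value, adjusted by Benjamini-Hochberg over all genes tested, is under 0.05. Fold changes are ApcMin/+; p16cis/cis over ApcMin/+ on the log2(normalized count + 1) scale, errors of fold changes are standard errors, and p-values measure the spread between single mice. All 10 genes passed the filter on low values.

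The antioxidant genes did not move as a block. Gpx2 was about 2.04-fold higher in ApcMin/+; p16cis/cis mice, while Nfe2l2, Gclc and Gclm were lower by 28.3%, 37.5% and 36.6%, and the other 6 were not called. Thus 4 of the 10 genes were called, against 16.9% of all genes tested. Of these 3 were lower, where 8.75% of all genes were, and 1 was higher, where 8.14% of all genes were. These 4 genes were also the 4 of the 10 whose genotypes did not overlap, against 16.2% of all genes. The median log2 fold change over the 10 genes was -0.31, and over all genes tested it was -0.00414. With a fold change over 2 required as well, Gpx2 alone of the 10 was called, against 3.48% of all genes.

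**Figure D1:**
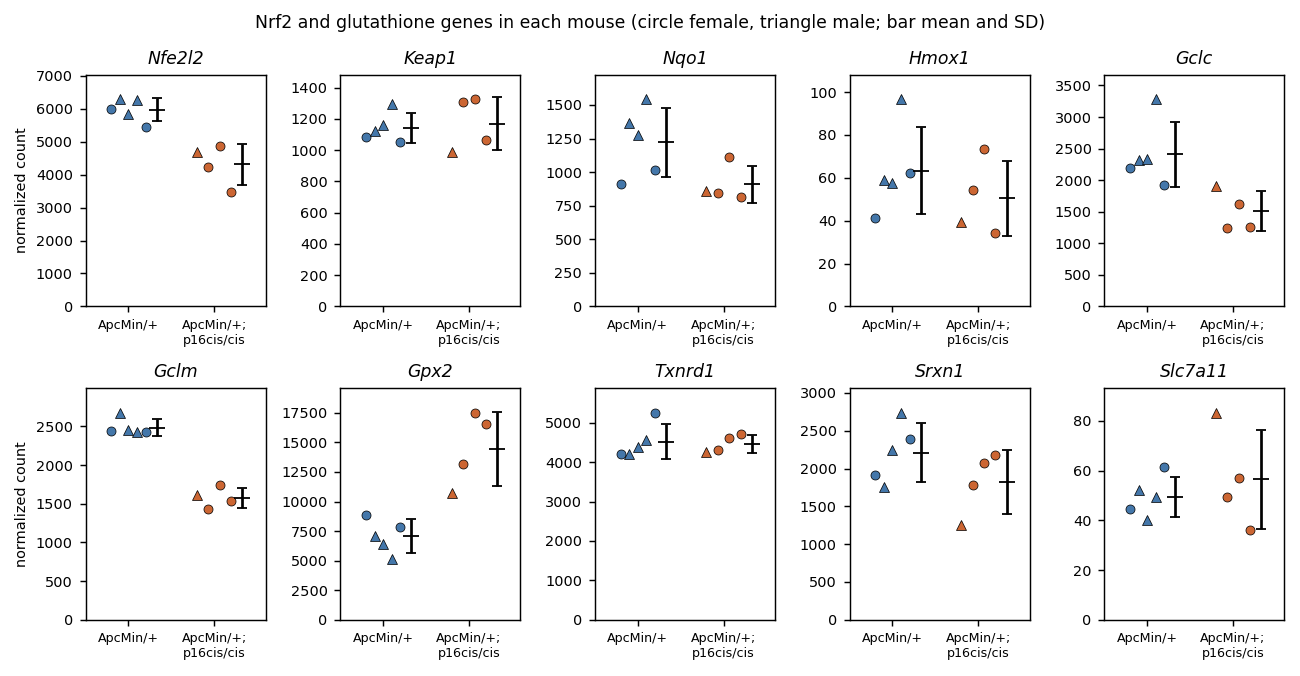
Normalized count (vertical axes, from 0) of the 10 genes in each of 5 ApcMin/+ and 4 ApcMin/+; p16cis/cis mice, with circles for females, triangles for males, and a bar for the mean and SD of each genotype. The genotypes do not overlap for Nfe2l2, Gclc, Gclm and Gpx2, and they overlap for the other 6.

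Nfe2l2 itself fell. Its normalized count was 5998, 6287, 5853, 6277 and 5451 in ApcMin/+ replicates 1 to 5 and 4684, 4222, 4873 and 3473 in ApcMin/+; p16cis/cis replicates 1 to 4. The highest ApcMin/+; p16cis/cis mouse was thus below the lowest ApcMin/+ mouse. This was a log2 fold change of -0.48 ± 0.11 (95% confidence interval -0.73 to -0.23, limma adjusted p = 0.0166). In females alone, 2 against 3, the difference was -0.46 with an adjusted p of 0.127. Nfe2l2 (ENSMUSG00000015839.6) codes for protein, as do the other 9 genes, and lies in GRCm38 on chromosome 2, minus strand, between 75675513 and 75704641.

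Keap1 did not share this difference. Its normalized count was 1084, 1121, 1164, 1298 and 1050 in ApcMin/+ replicates 1 to 5 and 987, 1306, 1325 and 1064 in ApcMin/+; p16cis/cis replicates 1 to 4, and the genotypes overlapped. Its log2 fold change was 0.03 ± 0.12, with an interval from -0.22 to 0.28 (limma adjusted p = 0.900). An effect as large as that on Nfe2l2 lay outside this interval. Keap1 (ENSMUSG00000003308.15) lies on chromosome 9 from 21229730 to 21239361 on the minus strand and overlaps the antisense gene Gm16754, which had a normalized count between 12.0 and 41.5 in every mouse. Whether the counting used strand is not stated in the sources used here.

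Both subunits of glutamate-cysteine ligase, the rate-limiting enzyme of glutathione synthesis, fell. Gclm, the modifier subunit, had a normalized count of 2444, 2677, 2453, 2423 and 2425 in ApcMin/+ replicates 1 to 5. In ApcMin/+; p16cis/cis replicates 1 to 4 it had 1608, 1431, 1737 and 1538. The spread within each genotype was small (SD 108 and 128 around means of 2484 and 1578) and the gap between the genotypes was several times larger. The log2 fold change was -0.66 ± 0.09, with an interval from -0.85 to -0.46 (limma adjusted p = 0.00208), the smallest adjusted p of the 10 genes. Gclm (ENSMUSG00000028124.15) is on chromosome 3 from 122245557 to 122270732, on the plus strand.

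Gclc, the catalytic subunit, had a normalized count of 2191, 2319, 2334, 3280 and 1931 in ApcMin/+ replicates 1 to 5. In ApcMin/+; p16cis/cis replicates 1 to 4 it had 1904, 1247, 1617 and 1253. The genotypes came close, since the lowest ApcMin/+ mouse was 1931 and the highest ApcMin/+; p16cis/cis mouse, the male, was 1904. The log2 fold change was -0.68 ± 0.17, with an interval from -1.04 to -0.32 (limma adjusted p = 0.0189). The call was lost without ApcMin/+; p16cis/cis replicate 2 (adjusted p = 0.0633) or replicate 4 (adjusted p = 0.0646), and in females alone (-0.59, adjusted p = 0.0588). The ratio of Gclc to Gclm counts ran from 0.796 to 1.35 in ApcMin/+ mice and from 0.815 to 1.19 in ApcMin/+; p16cis/cis mice, so it did not separate the genotypes. Gclc (ENSMUSG00000032350.9) is on chromosome 9 from 77754535 to 77794485, on the plus strand.

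Slc7a11, the light chain of the cystine importer that feeds glutathione synthesis, was scarce. Its normalized count was 44.6, 52.3, 40.0, 49.6 and 61.3 in ApcMin/+ replicates 1 to 5 and 83.3, 49.4, 57.1 and 36.0 in ApcMin/+; p16cis/cis replicates 1 to 4, which rested on 23 to 66 reads a mouse. Its log2 fold change was 0.14 ± 0.26 (interval -0.44 to 0.71, limma adjusted p = 0.758), and ApcMin/+; p16cis/cis mice had both the highest and the lowest value. At this depth its interval held differences in both directions, up to a rise of 0.71. Slc7a11 (ENSMUSG00000027737.10) spans chromosome 3 from 49892526 to 50443614 on the minus strand.

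Gpx2 was the only one of the 10 genes called higher and had the largest difference of them. Its normalized count was 8899, 7089, 6393, 5135 and 7874 in ApcMin/+ replicates 1 to 5 and 10711, 13158, 17517 and 16518 in ApcMin/+; p16cis/cis replicates 1 to 4. Every ApcMin/+; p16cis/cis mouse was above every ApcMin/+ mouse. The log2 fold change was 1.03 ± 0.18, with an interval from 0.63 to 1.43 (limma adjusted p = 0.00571), and it was 0.90 in females alone (adjusted p = 0.0236). Gpx2 (ENSMUSG00000042808.8) is on chromosome 12 from 76792333 to 76795554 on the minus strand and lies within the span of Fntb, on the opposite strand, whose normalized count was between 599 and 906. The processed copy Gpx2-ps1 was listed at no more than 9.02 in any mouse.

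**Figure D2:**
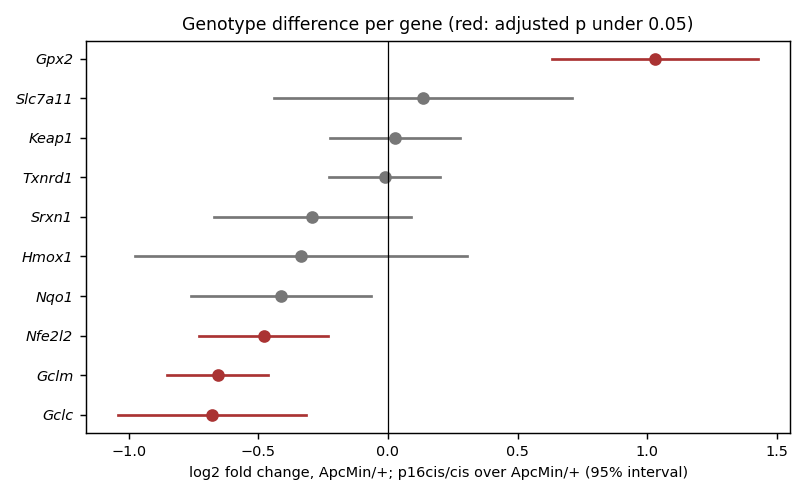
Log2 fold change of ApcMin/+; p16cis/cis over ApcMin/+ mice (horizontal axis) for each of the 10 genes, with its 95% confidence interval from limma as a line, red where the adjusted p was under 0.05. Gpx2 stands at 1.03 to the right of 0, Nfe2l2, Gclm and Gclc between -0.68 and -0.48 to its left, and the intervals of Keap1, Hmox1, Txnrd1, Srxn1 and Slc7a11 span 0.

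Of the enzymes that handle quinones and heme, neither was called. Nqo1, a quinone reductase widely used as an Nrf2 readout, had a normalized count of 911, 1365, 1273, 1542 and 1017 in ApcMin/+ replicates 1 to 5. In ApcMin/+; p16cis/cis replicates 1 to 4 it had 861, 847, 1114 and 815. ApcMin/+; p16cis/cis replicate 3 lay above the 2 ApcMin/+ females, and the other 3 lay below all ApcMin/+ mice. The log2 fold change was -0.41 ± 0.16 (interval -0.76 to -0.06, limma adjusted p = 0.0955). It passed without ApcMin/+ replicate 1 (adjusted p = 0.0466), and in females alone the difference was -0.07. Nqo1 (ENSMUSG00000003849.8) is on chromosome 8 from 107388225 to 107403206 on the minus strand.

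Hmox1, the inducible heme oxygenase, had a normalized count of 41.3, 59.0, 57.6, 96.6 and 62.4 in ApcMin/+ replicates 1 to 5. It had 39.1, 54.2, 73.6 and 34.5 in ApcMin/+; p16cis/cis replicates 1 to 4, and these values rested on 22 to 76 reads a mouse. The log2 fold change was -0.33 ± 0.29, and its interval from -0.97 to 0.31 was wide (limma adjusted p = 0.467). Hmox1 is also made by macrophages. Of 6 tested macrophage and myeloid markers 4 had a log2 fold change under 0 and 2 over 0. Only Lyz2, which was lower, was called (given with the other cell types). Hmox1 (ENSMUSG00000005413.8) is on chromosome 8 from 75093621 to 75100589 on the plus strand.

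The thioredoxin genes among the 10 were not called either. Txnrd1, the cytosolic thioredoxin reductase, had a normalized count of 4205, 4219, 4393, 4556 and 5260 in ApcMin/+ replicates 1 to 5 and 4252, 4312, 4604 and 4729 in ApcMin/+; p16cis/cis replicates 1 to 4. The values of the second group lay inside the range of the first. Txnrd1 had a log2 fold change of -0.01 ± 0.10, with an interval from -0.23 to 0.20 (limma adjusted p = 0.943), the narrowest interval of the 10 genes after that of Gclm. A fall as large as that of Gclm, -0.66, was outside it. Txnrd1 (ENSMUSG00000020250.10) is on chromosome 10 from 82833951 to 82897712, on the plus strand.

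Srxn1, the sulfiredoxin that restores overoxidized peroxiredoxins, had a normalized count of 1914, 1752, 2240, 2739 and 2393 in ApcMin/+ replicates 1 to 5. It had 1246, 1782, 2075 and 2179 in ApcMin/+; p16cis/cis replicates 1 to 4. The genotypes overlapped, with the single male of the second group lowest. Srxn1 had a log2 fold change of -0.29 ± 0.17 (interval -0.67 to 0.09, limma adjusted p = 0.268). Srxn1 (ENSMUSG00000032802.8) is on chromosome 2 from 152105516 to 152111376 on the plus strand.

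Levels were compared between the genes as normalized count per kilobase of the longest protein-coding transcript in GENCODE M21. In ApcMin/+ mice Gpx2 was the most abundant at 6634 ± 1341 (SD, n = 5), followed by Nfe2l2 at 2413 ± 140 and Txnrd1 at 1250 ± 120. Nqo1 (787 ± 166), Srxn1 (785 ± 139) and Gclc (704 ± 150) did not differ beyond their spread. Gclm (444 ± 19.4) and Keap1 (316 ± 26.6) followed, and Hmox1 (40.4 ± 12.9) and Slc7a11 (5.37 ± 0.876) were far below. In ApcMin/+; p16cis/cis mice Gpx2 stood at 13567 ± 2930 (SD, n = 4), against 1743 ± 252 for Nfe2l2 and 1235 ± 63.3 for Txnrd1. Gclm there had a lower level per kilobase (282 ± 23.0) than Keap1 (324 ± 47.2), within their spread, where in ApcMin/+ mice it had the higher.

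The 9-mouse profiles of the 4 called genes were set against all genes tested outside the antioxidant lists, by the root mean square difference of log2 values centered on each gene. The closest to Nfe2l2 were Abi1 (0.06), Gfm1 (0.06) and Ccny (0.08), and the closest to Gclm were Syap1 (0.06), Slc25a46 (0.07) and Coa5 (0.07). Gclc was nearest to Epb41l3 (0.09), Aqp11 (0.10) and Fam174a (0.11), and Gpx2 to P2ry6 (0.15), Cmtm7 (0.17) and Isg20 (0.17). A smaller value means a closer profile, in log2 units per mouse.

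The genotypes differed in their numbers of females and males, and Gpx2 and Gclc were set out by sex. The ApcMin/+; p16cis/cis group had 1 male, so within it the sexes could not be tested. In ApcMin/+ mice Gpx2 was 8899 and 7874 in the females and 5135 to 7089 in the males, and the male ApcMin/+; p16cis/cis mouse had the lowest Gpx2 of its group. For Gclc the order was the opposite, with the females lowest in ApcMin/+ mice and the male highest in ApcMin/+; p16cis/cis mice. In the limma fit with sex as a covariate the male minus female log2 difference was -0.48 ± 0.14 for Gpx2 and 0.40 ± 0.14 for Gclc, which did not pass adjustment over all genes (adjusted p = 0.897 and adjusted p = 0.992). In that fit the genotype difference was 0.86 for Gpx2 (adjusted p = 0.00912), -0.64 for Gclm (adjusted p = 0.00733), -0.54 for Gclc (adjusted p = 0.0383) and -0.43 for Nfe2l2 (adjusted p = 0.0459). All 4 thus stayed past the threshold.

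ApcMin/+ replicate 4 had the highest Keap1, Nqo1, Hmox1, Gclc and Srxn1 of its group and the lowest Gpx2 and Gclm. Without it the log2 fold changes were -0.46 for Nfe2l2, -0.56 for Gclc, -0.67 for Gclm and 0.92 for Gpx2, with limma adjusted p-values between 0.000935 and 0.0157. When the mitochondrial share, which moved with the genotype, was a covariate, none of the 10 genes passed (limma adjusted p at least 0.848), while 1 had an unadjusted p under 0.05. The log2 fold changes were then -0.25 for Nfe2l2, -0.0369 for Gclc, -0.46 for Gclm and 0.58 for Gpx2. Over all 14410 genes that limma fit made 0 calls, with 798 genes at an unadjusted p under 0.05, and the part of the mitochondrial share in these results cannot be told apart from the genotype. The edgeR and DESeq2 count tests on the recovered reads called the same 4 genes, shown in the plot of the 4 genes under each setting.

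**Figure D3:**
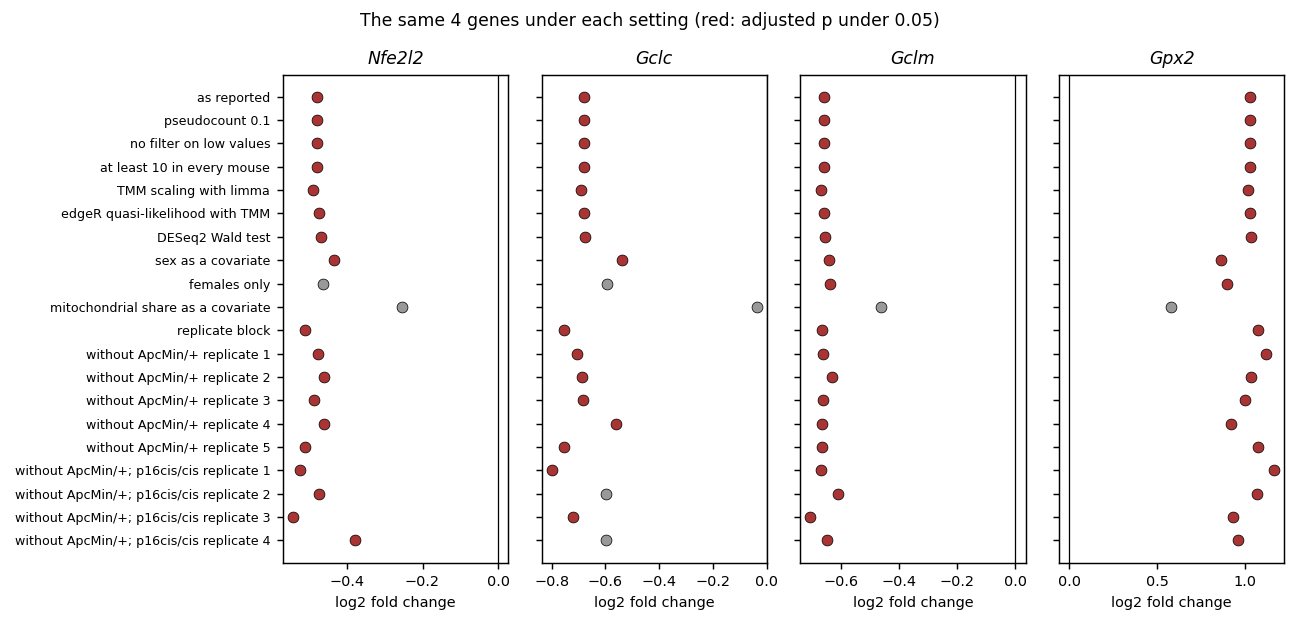
Log2 fold change of ApcMin/+; p16cis/cis over ApcMin/+ mice (horizontal axes) of Nfe2l2, Gclc, Gclm and Gpx2 under the reported fit and each other setting (rows), red where the adjusted p was under 0.05. Gpx2 stays between 0.58 and 1.17, and with the mitochondrial share as a covariate all 4 points turn gray.

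The genes around these 10 were then counted in 8 groups of the same pathway, with 86 further genes of which 82 were tested. Counts of single groups include these 10 genes, and stand beside the 16.9% of all genes tested that were called in either direction. Of the 82, 16 were called lower and 7 higher, against 8.75% and 8.14% of all genes tested, and their median log2 fold change was -0.05. The count of lower genes was 7 or 8 without ApcMin/+ replicate 2 or 3 or ApcMin/+; p16cis/cis replicate 2 or 4. Lower calls over all genes fell in these fits too, to 719, 686, 682 and 649, from 1261 with all 9 mice. The count of higher genes was 4 without ApcMin/+ replicate 2 or 3 or ApcMin/+; p16cis/cis replicate 3. Higher calls over all genes were then 638, 631 and 1003, from 1173 with all 9 mice. With sex as a covariate 8 were lower and 6 higher, beside 761 and 676 of all 14410 genes tested.

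Among 10 regulators, 3 passed and all 3 were lower. Besides Nfe2l2 these were Cul3, the scaffold of the ligase that works with Keap1 (log2 fold change -0.29 ± 0.08, adjusted p = 0.0294), and Bach1, a repressor at antioxidant response elements (-0.34 ± 0.10, adjusted p = 0.04). The call of Cul3 was lost when any of 5 of the 9 mice was left out and that of Bach1 with any of 7 (adjusted p up to 0.0831 and 0.111). Mafg, a small Maf partner of Nrf2, stood at 0.02 ± 0.18, and Sqstm1, the autophagy receptor that binds Keap1, at -0.34 ± 0.14 (adjusted p = 0.115).

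In glutathione synthesis and cystine supply 6 of 13 genes passed, all lower. The largest fall was in Ggt1, a gamma-glutamyltransferase that starts the breakdown of extracellular glutathione, whose normalized count was 200.3 ± 88.8 in the 5 ApcMin/+ mice and 35.7 ± 12.0 in the other 4 (SD), a log2 fold change of -2.41 ± 0.33 (limma adjusted p = 0.00213). Cth, which makes cysteine from cystathionine, fell from 1928 ± 430 to 1140 ± 176, with a log2 fold change of -0.74 ± 0.17 (adjusted p = 0.0134). Both kept their call without any single mouse. In females alone Ggt1 stayed called (-1.90, limma adjusted p = 0.0270) and Cth did not (-0.45, adjusted p = 0.138). Oplah and Chac2, enzymes of glutathione turnover, were the remaining genes of the 6, at -0.50 ± 0.13 and -0.47 ± 0.13. Gss, which performs the second step of glutathione synthesis, stood at 0.03 ± 0.16, and Slc3a2, the heavy chain of the cystine importer, at -0.14 ± 0.14. Ggt1, Oplah and Chac2 act on existing glutathione or its products, while Gclc, Gclm and Cth act on its supply.

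Among the glutathione peroxidases and their reductase 3 of 11 tested genes passed. Gpx1, the ubiquitous cytosolic peroxidase, rose with Gpx2, with a normalized count of 4404 ± 1256 in the 5 ApcMin/+ mice and 7931 ± 593 in the other 4 (SD), a log2 fold change of 0.89 ± 0.18 (limma adjusted p = 0.00907). The genotypes did not overlap, and the call held without any single mouse. Gsr, which regenerates reduced glutathione, was lower (-0.33 ± 0.09, adjusted p = 0.0309), a call lost when any of 5 of the 9 mice was left out (adjusted p up to 0.0942). Gpx4, the lipid hydroperoxidase, stood at 0.05 ± 0.19 (interval -0.36 to 0.45).

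In the thioredoxin and peroxiredoxin group 3 of 15 genes passed, near the 16.9% of all genes tested. None of these 3 was a thioredoxin or its reductase. Sesn1 fell (-0.75 ± 0.18, adjusted p = 0.016) and Sesn2 rose (0.48 ± 0.11, adjusted p = 0.0155), 2 sestrins that respond to stress. Prdx2, an abundant cytosolic peroxiredoxin, rose (0.37 ± 0.10, adjusted p = 0.0296), but the call was lost when any of 7 of the 9 mice was left out (adjusted p up to 0.0812). Txn1 stood at 0.18 ± 0.17, Prdx1 at -0.12 ± 0.09 and Txnip, the inhibitor of thioredoxin, at -0.43 ± 0.25.

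Of 11 quinone, heme and iron genes 2 passed, both lower, where 16.9% of all genes tested passed in either direction. Slc40a1, the iron exporter ferroportin, had a normalized count of 4327 ± 723 in the 5 ApcMin/+ mice and 2623 ± 277 in the other 4 (SD), a log2 fold change of -0.71 ± 0.13 (limma adjusted p = 0.00637). Fth1, the ferritin heavy chain, fell by 0.55 on the log2 scale (adjusted p = 0.0456), and the call was lost when any of 7 of the 9 mice was left out (adjusted p up to 0.123). Fth1 has processed copies in the genome with which its reads could be shared. The deposited data held 2 entries under this symbol, and only the one that GENCODE M21 names Fth1 was used. Of 7 tested NADPH genes Idh1 alone passed (-0.40 ± 0.10, adjusted p = 0.0211), also near the share of all genes. Its call was lost when any of 4 of the 9 mice was left out (adjusted p up to 0.0683). G6pdx and Pgd, the dehydrogenases of the pentose phosphate pathway, stood at 0.23 ± 0.15 and -0.15 ± 0.13.

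The mitochondrial superoxide dismutase Sod2 (-0.34 ± 0.09, adjusted p = 0.028) and catalase, Cat (-0.55 ± 0.15, adjusted p = 0.0295), were lower, and Sod1 stood at 0.03 ± 0.21. Their calls were lost when any of 5 and 3 of the 9 mice, respectively, was left out (adjusted p up to 0.0834 and 0.0941). Among 21 tested glutathione transferases and other known Nrf2 targets 3 were lower and 4 higher. Ugdh, which makes the UDP-glucuronic acid used in conjugation, had a normalized count of 8592 ± 644 in the 5 ApcMin/+ mice and 3420 ± 440 in the other 4 (SD), a log2 fold change of -1.33 ± 0.11 (limma adjusted p = 0.000441). Gsta1 fell by 2.36 on the log2 scale (adjusted p = 0.0102) and the exporter Abcc3 by 0.56 (adjusted p = 0.0123). Gstm1 (0.58 ± 0.13, adjusted p = 0.0147), Gstm3 (0.55 ± 0.13, adjusted p = 0.0183), Gstm2 (0.58 ± 0.16, adjusted p = 0.0302) and the epoxide hydrolase Ephx1 (0.41 ± 0.11, adjusted p = 0.0266) rose. The calls of Gstm2 and Ephx1 were lost when any of 7 and 4 of the 9 mice was left out (adjusted p up to 0.0717 and 0.0692). The transferases are similar in sequence, so the counting could have split reads among Gstm1, Gstm2 and Gstm3 and between Gsta1 and its relatives.

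**Figure D4:**
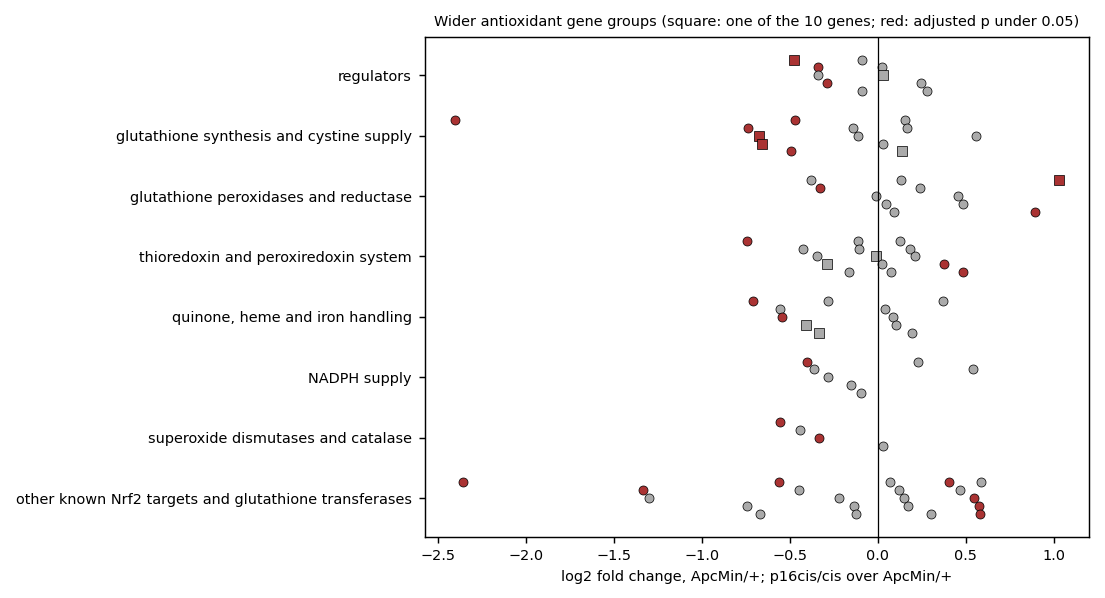
Log2 fold change of ApcMin/+; p16cis/cis over ApcMin/+ mice (horizontal axis) for every tested gene of the 8 groups (rows), with squares for the 10 genes and red where the adjusted p was under 0.05. The vertical offset within a row only separates the points. The 6 red points of glutathione synthesis lie left of 0, and Gpx2 (1.03) and Gpx1 (0.89) are the points farthest to the right.

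Markers of cell types were read beside these genes, and their part in the results was not tested. In bulk mucosa a smaller number of cells of a type and less RNA per cell cannot be told apart. Epithelial markers were abundant in every mouse, with summed normalized counts of 383562 to 638795 in ApcMin/+ and 382051 to 437087 in ApcMin/+; p16cis/cis mice, and of 11 only Slc26a3 was called, lower by 1.23 ± 0.24 on the log2 scale. Slc26a3 is also 1 of 7 surface colonocyte markers, of which it was again the only one called. All 7 surface markers had a log2 fold change under 0, with a median of -0.45, and their summed level was 127611 to 269899 and 89268 to 116530. Car1 alone gave 65000 to 165060 and 40059 to 68015 of this sum. Its values overlapped between the genotypes and it was not called. Of 7 crypt stem and proliferation markers 1 was called, Mki67, higher by 0.92 ± 0.17. Of these 7, 6 had a log2 fold change over 0 and 1 under 0, with a median of 0.24. Their summed level was 5893 to 10065 and 9434 to 12696, of which Mki67 alone gave 1856 to 3072 and 3240 to 5251. Beside such marker counts, 16.9% of all genes tested were called.

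Markers of the other cell types had far lower sums than the epithelial markers. The summed normalized count of 9 macrophage and myeloid markers was 1032 to 1870 in ApcMin/+ and 1511 to 1563 in ApcMin/+; p16cis/cis mice, and most of it was Cd14 (799 to 1615 and 1350 to 1437). Among the 6 tested, Lyz2 was called lower (log2 fold change -1.56), and Csf1r (-1.04), Mrc1 (-0.44), Itgam (-0.02), Cd14 (0.38) and Cd68 (0.85) were not called. Adgre1 and Cd163 were at 6.70 or less in ApcMin/+ mice and at 0 in every ApcMin/+; p16cis/cis mouse. Lymphocyte markers summed to 59.7 to 866 and 135 to 229.9, with Jchain called lower among 5 tested. Of these 5, 4 were under 0 and 1 over 0 (median log2 fold change -1.98). Smooth muscle, stroma and vessel markers summed to 72.5 to 406 and 68.9 to 160, with Col3a1 called lower among 6. All 6 were under 0 (median log2 fold change -1.54). Erythroid markers summed to 1187 to 7269 and 352 to 4534, with Alas2 called lower among 5. All 5 were under 0 (median log2 fold change -1.18).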

How the data were processed

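RNA-seq of colonic mucosa of 5 ApcMin/+ and 4 ApcMin/+; p16cis/cis mice was analyzed from 1 table. The deposited signal values are gene counts that the authors scaled by a factor for each library. They sequenced on BGISEQ-500, aligned with BOWTIE2, quantified with RSEM and used DESeq2. Versions, the build and the annotation are not given in the sources used here. GENCODE M21 (GRCm38) held 52480 of the 54146 identifiers at the same version. Values divided by the smallest positive value of their column were whole to within 0.01 reads in 100% of cases, which gave the reads behind them.

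The main test was limma 3.58.1 (R 4.3.3, trended variances) on log2(normalized count + 1), with genotype as the only term and Benjamini-Hochberg adjustment over 14410 genes. It called 2434 genes. On the recovered reads edgeR 4.0.16 (quasi-likelihood, TMM) called 2469 and the DESeq2 1.42.0 Wald test 3251. The members, gene groups and rules were chosen with earlier results of these data known. Named genes are the 10 members, in each group up to 4 called genes per direction in order of adjusted p, and 17 genes fixed by name; Oplah, Chac2, the marker genes and Gpx2-ps1 are outside this rule. Counts were also simulated for the same 14410 genes, with 100 genes changed at each size. Of these, 49% of genes changed by 1 and 8% of genes changed by 0.5 on the log2 scale were called. Of the calls 6.56% were unchanged genes, and with no change there were 0 calls. Each gene was drawn independently, without shifts shared by many genes of a mouse. False calls from such shifts could therefore not appear in it. Far fewer genes were changed than the 2434 called in the data, and the adjustment depends on that number. The 49% and 8% therefore do not give the share found in the data.
The sex difference itself and the fit of the same 8 mice without the block were added after seeing the data.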

Additional observations from a re-analysis of the deposited data

Results flagged for a closer look

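Each gene was checked within each genotype for a single mouse standing apart. Of 84 such checks 8 found one, and about 4.2 would be found by chance. For the 10 genes these were Nqo1 in ApcMin/+; p16cis/cis replicate 3 (normalized count 1114, the others 815 to 861) and Gclm in ApcMin/+ replicate 2 (2677, the others 2423 to 2453). In the wider groups they were Prdx2 in ApcMin/+; p16cis/cis replicate 1 (3340, the others 3840 to 3887), Sod2 in ApcMin/+ replicate 5 (1770, the others 2061 to 2155), Gss in ApcMin/+ replicate 4 (4985, the others 2775 to 3281) and G6pdx in ApcMin/+ replicate 4 (2012, the others 1633 to 1707). Prdx1 stood apart in ApcMin/+ replicate 1 (4968, the others 5499 to 5655) and in ApcMin/+; p16cis/cis replicate 3 (5646, the others 4765 to 4844).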

How the results depend on the processing

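Nfe2l2, Gclc, Gclm and Gpx2 were called, with the same direction, at a pseudocount of 0.1, under both other filters, with TMM scaling, edgeR, DESeq2 and sex as a covariate, and with the replicate block (Nfe2l2 -0.51, Gclc -0.75, Gclm -0.66, Gpx2 1.07). Same-numbered mice are different animals, and the correlations of their deviations ran from -0.18 to 0.14, so the pairing was not used. The 8 mice without the block gave the same log2 fold changes as with it, including those of other sign than with 9 mice, for Keap1 (-0.0032), Txnrd1 (0.0423), Gss (-0.0203), Gpx4 (-0.0640) and Sod1 (-0.12).

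In females only, 1 of the 10 genes and 3 of the wider genes were lower, beside 429 of all 14795 genes tested there. Nfe2l2 at -0.46 and Gclc at -0.59 were no longer called. Hmox1 (0.0245), Slc7a11 (-0.16), Mafg (-0.11) and Slc3a2 (0.0634) were of other sign. With the mitochondrial share as a covariate, limma called 0 lower and 0 higher in both sets, against 1 of the 10 and 11 of the wider genes at an unadjusted p under 0.05, while edgeR and DESeq2 were not run with it. Values were then -0.25 for Nfe2l2, -0.0369 for Gclc, -0.46 for Gclm and 0.58 for Gpx2, and of other sign for Keap1 (-0.10), Nqo1 (0.0755), Mafg (-0.41), Sqstm1 (0.0416), Prdx1 (0.0339), Txnip (0.12) and Slc3a2 (0.34). The cause was not tested. With sex as a covariate 8 wider genes were lower and Mafg was at -0.0279, and with no filter 10 were lower, where more genes were tested. Over all genes 761 and 1019 were lower in these 2 fits, against 1261 in the reported fit. Gpx4 and Sod1 were at -0.0050 and -0.0316 with edgeR and at -0.0012 and -0.0277 with DESeq2. A fold over 2 left 0 of the 10 genes lower, with Nfe2l2 at -0.48, Gclc at -0.68 and Gclm at -0.66. Bonferroni adjustment of limma left 0 lower and 0 higher (Gclm 0.121, Gpx2 at 1.03 not called), against 4 lower and 1 higher at an unadjusted p under 0.05, and left 0 with edgeR and 2 with DESeq2.

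Leaving out single mice gave ranges of -0.80 to -0.56 for Gclc, -0.51 to -0.32 for Nqo1, -0.0370 to 0.10 for Keap1, -0.0403 to 0.0423 for Txnrd1, -0.0694 to 0.33 for Slc7a11, -0.13 to 0.21 for Mafg, -0.0490 to 0.18 for Gss, -0.0640 to 0.21 for Gpx4 and -0.12 to 0.21 for Sod1. Among values not called, others moved by over 1.5 times, namely Hmox1 (-0.53 to -0.17, the latter without ApcMin/+ replicate 4), Srxn1 (-0.39 to -0.12, the latter without ApcMin/+; p16cis/cis replicate 1), Txnip (-0.57 to -0.19), G6pdx (0.0930 to 0.36), Slc3a2 (-0.25 to -0.0736), Pgd (-0.28 to -0.0766) and Txn1 (0.0991 to 0.29). The wider genes called ranged from 7 to 17 lower and from 4 to 9 higher. Hmox1 and Slc7a11, at 22 to 76 reads a mouse, are limited by depth.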
